A study of Sus scrofa with 24 samples.

Results

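The insulin-like growth factor (IGF) system was followed here in porcine Longissimus dorsi (LD) muscle through the genes IGF1, IGF2, IGF1R, IGF2R, IGFBP3, IGFBP4, IGFBP5, IGFBP6, IGF2BP2 and IGF2BP3. The members were found by gene symbol, and 8 of the 10 names matched a row among the 22861 genes of the expression table. IGF2 and IGF2BP3 were not analysed here. RNA was sequenced from 24 male pigs, 1 library per animal: 6 crossbred Iberian x Duroc (IBxDU) and 6 purebred Iberian (IB) pigs of 4 months, and 6 IBxDU and 6 IB newborns, given as postnatal day 1 in the sample labels and as sampled at birth in the study's methods. All dams were Iberian sows, so IBxDU and IB animals differed in their sires, and no litter held both types. Newborns came from fewer litters than animals and no label ties a library to a litter, so the p-values below treat animals as independent and may be too small. The pigs of 4 months had also been reared on a growing diet and, as the study states, fasted before slaughter, and these cannot be told apart from age.

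IGF1 and IGF2 are small secreted peptides that resemble insulin. IGF1R, a receptor tyrosine kinase close to the insulin receptor, passes their signal to the PI3K-AKT-mTOR and MAPK pathways and so to protein synthesis, cell survival and proliferation, whereas IGF2R, the cation-independent mannose 6-phosphate receptor, carries IGF2 to the lysosome for degradation and sorts lysosomal enzymes. The IGF-binding proteins (IGFBPs) hold the peptides in serum and in the extracellular matrix and either restrain or present them to the receptor. In skeletal muscle, locally made IGF1 and IGF2 support myoblast proliferation, differentiation and fibre growth, and IGFBP5 is made by myoblasts as they differentiate. IGF2BP2, an RNA-binding protein named for its binding to IGF2 mRNA, acts in myoblasts on mRNA stability and translation.

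Levels are given as scaled RPKM, that is, the deposited RPKM, which relates reads to gene length and to the mapped total of the library, divided by 1 trimmed-mean scaling factor per library. The factors ran from 0.530 to 0.976 in the 12 libraries of 4 months and from 1.02 to 1.61 in the 12 newborn libraries. The libraries held a mean of 27.0 M mapped reads and at most 35.9 M. A gene was called where limma gave p at most 0.01 and the groups differed at least 1.5-fold, the limits of the study, and the adjusted p printed beside it is Benjamini-Hochberg over all genes tested. All 8 members passed the filter of 0.5 RPKM on a group mean, in all 4 groups. The thinnest was IGFBP3, with 5 reads in its lowest library (exact Poisson 95% interval 1.62 to 11.7) and 348 in its highest, followed by IGF1 with 16 to 290 reads. Such intervals cover counting error only. In 8 libraries more than 97% of the mapped total lay in the listed genes, against 88.0% to 96.2% in the other 16. These 8 were 2 IBxDU and 1 IB library of 4 months, 4 IBxDU newborns and 1 IB newborn. The skeletal muscle genes measured, ACTA1 and TNNC2, summed to between 76583 and 265312 scaled RPKM at 4 months and to between 23993 and 71124 in newborns.

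Of the 8 members measured, 5 were called lower at 4 months than at birth (IGF1, IGF1R, IGFBP3, IGFBP4 and IGF2BP2) and 0 were called higher. Over all 12180 genes tested, 25.8% were called lower and 45.8% in either direction. The median log2 difference was -0.71 for the members and -0.13 for all genes tested. IGFBP3 differed most, and the other members called differed by 1.57- to 2.27-fold. All differences are on the scale log2(scaled RPKM + 0.1), which understates the change of genes with low values. In whole muscle, fewer cells of a type and less RNA per cell cannot be told apart.

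IGF1 was the only ligand measured (ENSSSCG00000000857). Its lowest, median and highest levels were 0.600, 1.24 and 1.57 scaled RPKM in IBxDU pigs of 4 months and 0.557, 0.787 and 0.910 in IB pigs of 4 months. In newborns the same 3 values were 1.19, 1.43 and 2.25 for IBxDU and 1.05, 1.44 and 2.40 for IB. The 2 ages overlapped, but 8 of the 12 pigs of 4 months lay below every newborn. IGF1 fell by 0.65 ± 0.17 on the log2 scale (SE, 12 against 12 animals, limma adjusted p = 0.00158), a 1.57-fold difference that lies close to the limit of 1.5-fold. After quantile normalization the difference was -0.31 (limma adjusted p = 0.0965) and the call was lost. In IB pigs alone the ages did not overlap, with all 6 pigs of 4 months lower, as for 17.38% of all genes tested in that type, and the difference was -0.90 ± 0.21 (6 against 6, limma adjusted p = 0.00243), and quantile normalization took it to -0.51 and ended the call. In IBxDU pigs alone it was -0.41 ± 0.24 (limma adjusted p = 0.177), and IGF1 was not called there.

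IGF1R, the signalling receptor (ENSSSCG00000004812), had lowest, median and highest levels of 0.603, 0.804 and 1.19 scaled RPKM in IBxDU pigs of 4 months and of 0.664, 0.780 and 0.977 in IB pigs of 4 months. In newborns it had 1.20, 1.64 and 2.15 in IBxDU and 1.57, 2.46 and 3.65 in IB. All 12 pigs of 4 months lay below all 12 newborns, a separation in this direction that 7.39% of all genes tested showed. IGF1R fell by 1.18 ± 0.15 on the log2 scale, or 2.27-fold (limma adjusted p = 2.86e-07). It was called lower at 4 months both in IBxDU (-0.86 ± 0.19, limma adjusted p = 0.00234) and in IB pigs (-1.50 ± 0.20, limma adjusted p = 2.39e-05). In IBxDU pigs, quantile normalization took the difference to -0.56, under the fold limit.

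IGF2R (ENSSSCG00000004044) had lowest, median and highest levels of 6.29, 11.5 and 13.9 scaled RPKM in IBxDU pigs of 4 months and of 9.62, 10.4 and 11.98 in IB pigs of 4 months. Newborns had 7.51, 9.76 and 12.6 in IBxDU and 9.06, 15.8 and 22.4 in IB. The 4 groups overlapped, and the IB newborns had both the highest median and the widest spread, with a coefficient of variation of 32.6% against 8.50% in IB pigs of 4 months. Between ages IGF2R differed by -0.20 ± 0.16 on the log2 scale (95% interval -0.53 to 0.14, limma adjusted p = 0.3) and was not called. The difference was 0.13 in IBxDU and -0.52 in IB pigs (limma adjusted p = 0.595 and 0.0339), without a call in either type. In IB pigs it was called without IB newborn 323 (-0.67) or 330 (-0.60). Values as deposited turned the IBxDU difference to -0.71.

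Since both receptors were measured in the same libraries, their ratio does not depend on the scaling factor of a library. IGF2R was 13.5 ± 3.3 times IGF1R per unit length in pigs of 4 months and 6.33 ± 1.5 times IGF1R in newborns (SD, n = 12 each). The ratio ran from 5.29 to 19.2 at 4 months and from 3.74 to 8.64 at birth, and among pigs of 4 months only IBxDU pig 702, with 5.29, lay within the newborn range. The means of IBxDU and IB pigs were 13.8 and 13.2 at 4 months and 6.40 and 6.27 at birth.

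**Figure D1:**
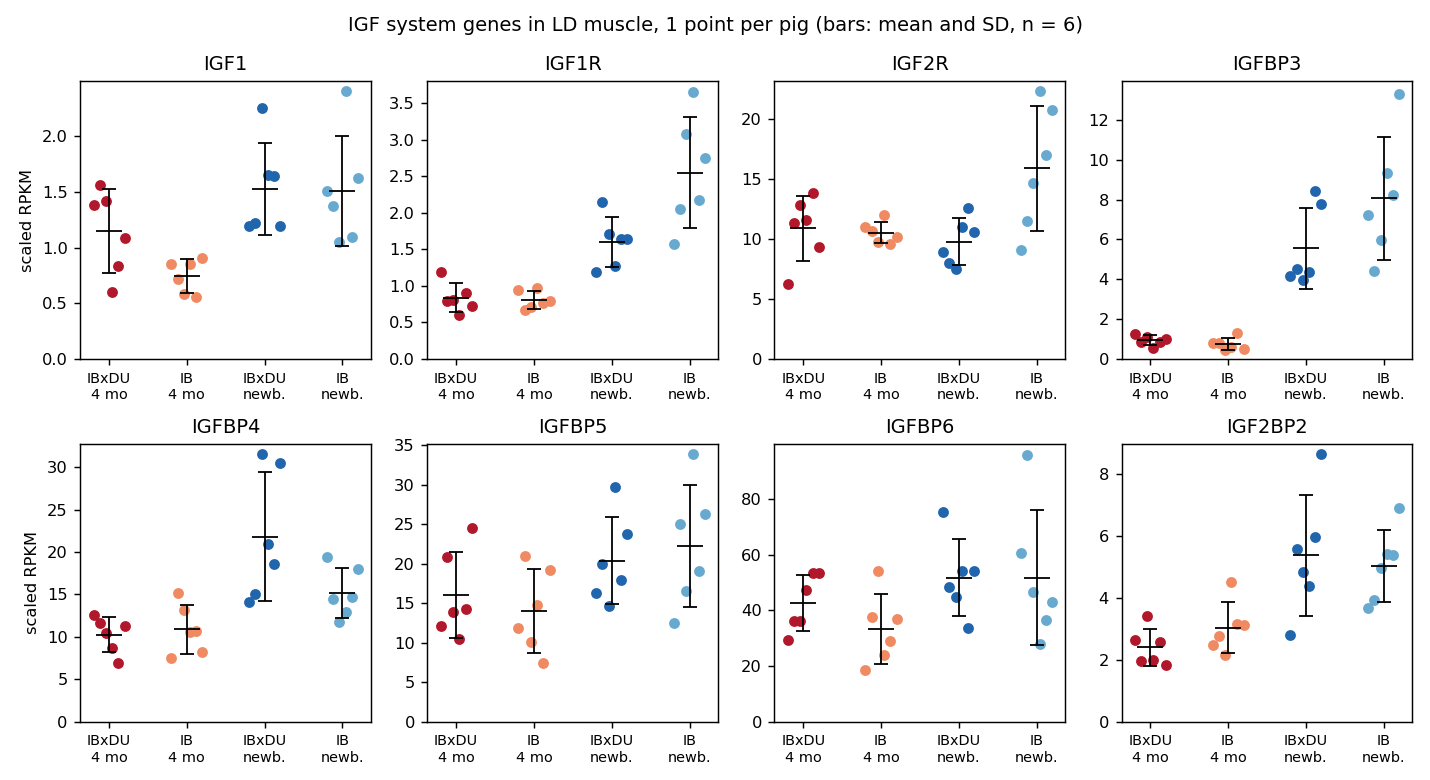
Scaled RPKM (vertical axes, each from 0) of the 8 IGF system genes in the 4 groups, with IBxDU and IB pigs of 4 months ("4 mo") left of IBxDU and IB newborns ("newb."). Each point is 1 pig, and the bars give the mean and SD (n = 6). All pigs of 4 months lie below all newborns for IGF1R and IGFBP3, and the IB newborns spread widest for IGF2R, between 9.06 and 22.4.

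The binding proteins showed unequal differences between ages. IGFBP3 (ENSSSCG00000016729), the main IGF carrier of serum, also made by muscle and connective tissue cells, had lowest, median and highest levels of 0.538, 0.926 and 1.24 scaled RPKM in IBxDU pigs of 4 months and of 0.476, 0.696 and 1.31 in IB pigs of 4 months. The newborns had 3.96, 4.45 and 8.46 in IBxDU and 4.41, 7.72 and 13.3 in IB. The ages were far apart, since the highest pig of 4 months had 1.31 and the lowest newborn 3.96. IGFBP3 fell by 2.83 ± 0.20 on the log2 scale, or 7.11-fold (95% interval -3.24 to -2.43, limma adjusted p = 4.13e-12), and 0.6% of all genes tested had an equal or more negative difference. It was called lower at 4 months in IBxDU (-2.42 ± 0.24, limma adjusted p = 4.67e-06) and in IB pigs (-3.25 ± 0.27, limma adjusted p = 4.31e-07).

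IGFBP4 (ENSSSCG00000017472), a binding protein that restrains IGF action until it is cleaved, had lowest, median and highest levels of 6.97, 10.9 and 12.6 scaled RPKM in IBxDU pigs of 4 months and of 7.56, 10.6 and 15.2 in IB pigs of 4 months. In newborns it had 14.1, 19.8 and 31.5 in IBxDU and 11.7, 14.6 and 19.4 in IB. The ages did not overlap in IBxDU pigs, where 13.15% of all genes tested lay wholly lower at 4 months, and did overlap in IB pigs. It fell by 0.77 ± 0.16 on the log2 scale over both types (1.70-fold, limma adjusted p = 0.000136) and by 1.04 ± 0.22 in IBxDU pigs (limma adjusted p = 0.00189). In IB pigs the difference was -0.50 ± 0.18 (limma adjusted p = 0.031) and was not called. Without IB pig 889 of 4 months it was -0.60 (limma adjusted p = 0.0114) and passed both limits.

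IGFBP5 (ENSSSCG00000025924) averaged 15.0 ± 5.2 scaled RPKM in pigs of 4 months and 21.3 ± 6.5 in newborns (SD, n = 12 each). Its lowest, median and highest levels were 7.39, 14.1 and 24.5 at 4 months and 12.5, 19.6 and 33.9 at birth, so the ages overlapped widely. The difference of -0.52 ± 0.18 on the log2 scale (limma adjusted p = 0.0148) was 1.44-fold, just inside the fold limit, and IGFBP5 was not called. It passed both limits without IBxDU pig 758 of 4 months (-0.59, limma adjusted p = 0.00558), without IB newborn 323 (-0.59, limma adjusted p = 0.00647), and after quantile normalization (-0.73). In IB pigs alone it was -0.67 and not called, and was called without IB newborn 323 (-0.82).

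IGFBP6 (ENSSSCG00000000261), which binds IGF2 in preference to IGF1, had the highest mean of the 8 members in every group. Its lowest, median and highest levels were 18.5, 36.6 and 54.0 scaled RPKM in the pigs of 4 months and 27.8, 47.4 and 96.0 in the newborns. The difference of -0.44 ± 0.19 on the log2 scale (limma adjusted p = 0.0451) was 1.35-fold and not called, and it was -0.79 and called after quantile normalization. IGFBP6 also varied most between animals of 1 group, by a coefficient of variation of 46.9% among IB newborns.

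IGF2BP2 (ENSSSCG00000011795) had lowest, median and highest levels of 1.85, 2.29 and 3.42 scaled RPKM in IBxDU pigs of 4 months and of 2.14, 2.96 and 4.52 in IB pigs of 4 months. Newborns had 2.80, 5.21 and 8.64 in IBxDU and 3.69, 5.17 and 6.90 in IB. All 12 pigs of 4 months lay below the newborn median of 5.17, although the ranges met. IGF2BP2 fell by 0.90 ± 0.16 on the log2 scale (1.87-fold, limma adjusted p = 1.85e-05), and it was called in IBxDU (-1.08 ± 0.24, limma adjusted p = 0.00222) and in IB pigs (-0.72 ± 0.19, limma adjusted p = 0.00527).

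IGF2BP1 (ENSSSCG00000023128), the paralogue of IGF2BP2 known as an oncofetal RNA-binding protein, lay under the filter and was not tested. It had 0 reads in 11 of the 12 libraries of 4 months and 1 read in the other, against 7 to 34 reads in each of the 12 newborn libraries, 208 in all. In newborns its level was 0.0829 to 0.351 scaled RPKM.

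Counted within each genetic type, 4 of the 8 members were called lower and 0 higher at 4 months in IBxDU pigs (IGF1R, IGFBP3, IGFBP4 and IGF2BP2), beside 20.4% of all genes tested called lower and 38.8% called either way. In IB pigs 4 were called lower and 0 higher (IGF1, IGF1R, IGFBP3 and IGF2BP2), beside 23.6% and 43.0%. IGF1R, IGFBP3 and IGF2BP2 were thus called in both types, from separate animals, and the share of all genes called in both types was not counted.

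**Figure D2:**
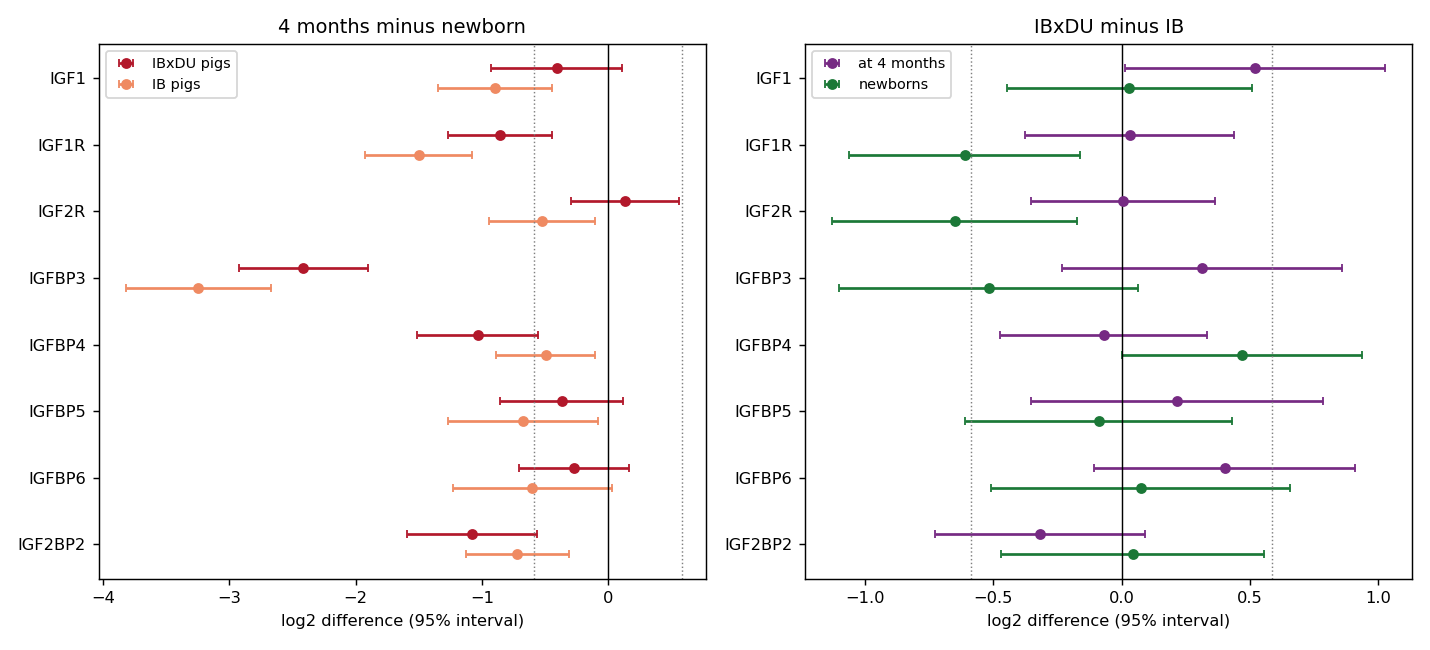
Log2 differences of the 8 genes with 95% intervals (horizontal axes), as 4 months minus newborn in IBxDU and in IB pigs (left) and as IBxDU minus IB at 4 months and in newborns (right). Dotted lines mark 1.5-fold, and each point rests on 6 against 6 animals. IGFBP3 lies furthest from 0 on the left, at -2.42 and -3.25, while on the right IGF1R and IGF2R lie below 0 in newborns, at -0.61 and -0.65, and IGF1 above 0 at 4 months, at 0.52.

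The choice of scaling moved every stage difference. Values as deposited placed the median of all genes at -0.91 on the log2 scale. All 8 members were then called lower, beside 7495 of all 12180 genes tested. IGFBP3 then stood at -3.58, and IGF2R, at -1.005, lay next to that median. After quantile normalization the median of all genes was -0.05 and 6 members were called lower (IGF1R, IGFBP3, IGFBP4, IGFBP5, IGFBP6 and IGF2BP2). Of all 12180 genes tested 2418 were then called lower. The sign over both types was negative for all 8 members under the 3 scalings.

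**Figure D3:**
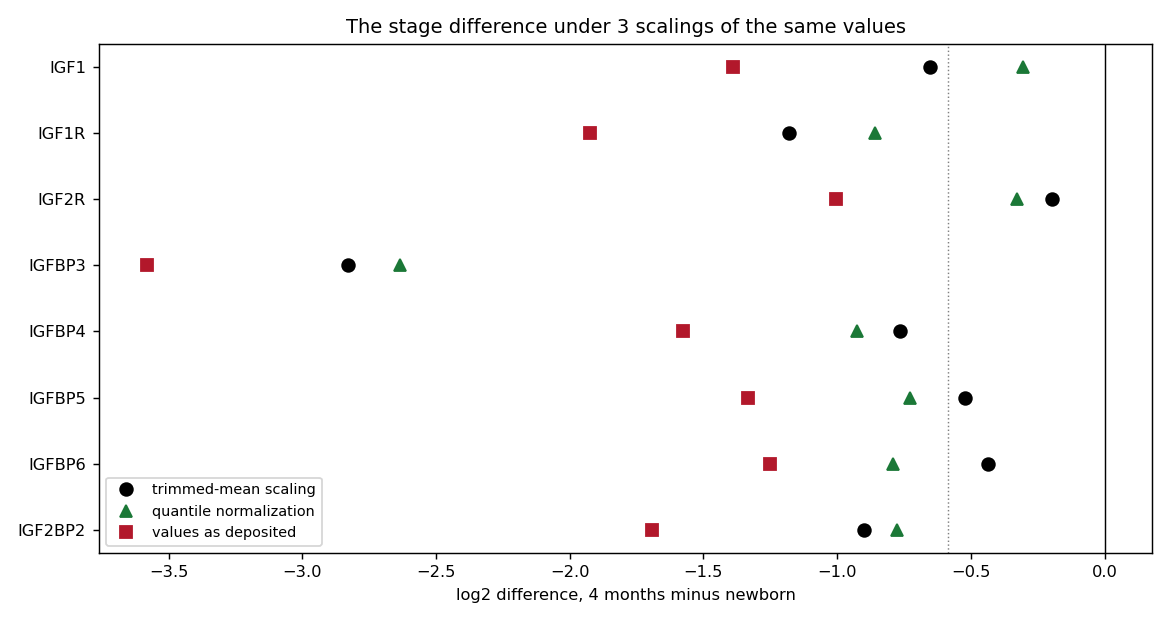
Log2 difference of each gene, 4 months minus newborn over 12 against 12 animals (horizontal axis), with trimmed-mean scaling, with quantile normalization and on the values as deposited. The dotted line marks 1.5-fold lower. Every point lies below 0, IGFBP3 runs from -3.58 to -2.64, and IGF1 lies at -1.39, -0.65 or -0.31.

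Within a library the 4 IGFBP genes can be compared per unit length without any scaling. IGFBP3 made up 1.40% ± 0.66 of their summed RPKM in pigs of 4 months and 7.27% ± 3.4 in newborns (SD, n = 12 each). Its share ran from 0.613% to 2.70% at 4 months and from 3.15% to 13.2% at birth, with no overlap. IGFBP6 made up 58.1% ± 8.4 at 4 months and 51.6% ± 11 at birth, and IGFBP5 made up 23.5% at 4 months and 22.1% at birth. The share of IGFBP4 was 15.2% ± 4.7 at 4 months and 22.1% ± 7.2 at birth in IBxDU pigs (SD, n = 6 each). In IB pigs it was 18.8% ± 3.4 at 4 months and 16.1% ± 3.4 at birth (SD, n = 6 each). The means of the types moved in opposite directions, but the ages overlapped in each type and this was not tested. The sum of the 4 was 64.5 ± 14 scaled RPKM at 4 months and 98.4 ± 18 at birth, and it exceeded IGF1 by 75.98 ± 31 times at 4 months and by 69.3 ± 21 times at birth.

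**Figure D4:**
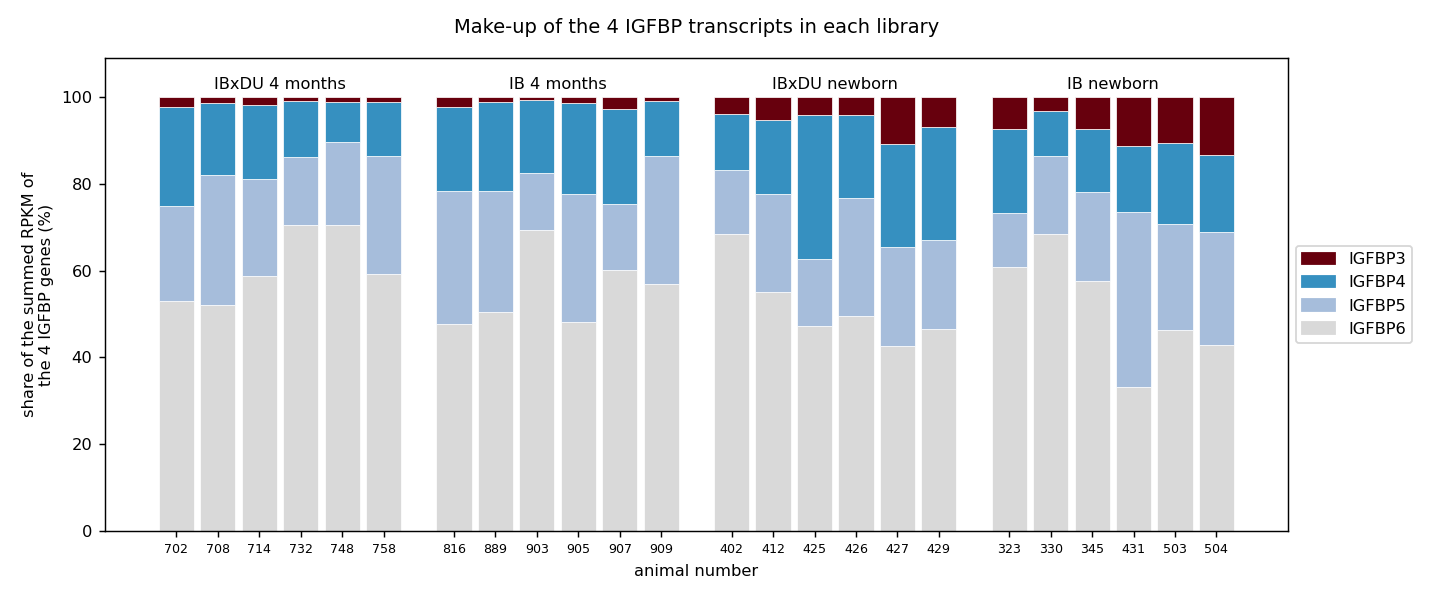
Share of IGFBP3, IGFBP4, IGFBP5 and IGFBP6 in their summed RPKM (vertical axis, percent) in each of the 24 libraries, named by animal number and ordered as IBxDU 4 months, IB 4 months, IBxDU newborn and IB newborn. IGFBP3 takes at most 2.70% in pigs of 4 months and at least 3.15% in newborns, and IGFBP6 is the largest part in 23 of the 24 bars, IB newborn 431 being the exception.

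In the order of mean level per unit length, IGFBP6 came first in all 4 groups and lay above the next gene in 23 of 24 libraries. IGF2R, IGFBP4 and IGFBP5 followed at 9.77 to 22.2 scaled RPKM. These neighbours did not separate in all groups, as IGF2R exceeded IGFBP4 in 3 of 6 IBxDU libraries of 4 months and IGFBP4 exceeded IGFBP5 in 3 of 6 IBxDU newborns. In newborns IGFBP3 came next, above IGF2BP2 in 6 of 6 IB and 3 of 6 IBxDU libraries. In pigs of 4 months IGFBP3, IGF1 and IGF1R shared the last 3 places at 0.746 to 1.15 scaled RPKM, and neighbours among them changed places between libraries. No animal stood apart by Dixon's ratio in any of the 32 gene and group combinations. IB newborn 431 was the highest of its group for 4 of the 8 genes (IGF1, IGF1R, IGF2R and IGFBP5), and IBxDU pig 732 of 4 months the lowest of its group for 4.

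Marker genes of other cell types were also compared between ages, beside 25.8% of all genes tested called lower and 45.8% called either way. Of the fibroblast list (COL1A1, COL3A1, DCN, LUM and PDGFRA), 3 of the 4 genes tested were called lower at 4 months. Their summed level was 426 to 780 scaled RPKM at 4 months and 597 to 2016 at birth, and PDGFRA was listed at 0 in all 24 libraries. Of the erythroid list 2 of 3 were lower (46.2 to 238 against 163 to 2094), of the endothelial list 1 of 3 (29.1 to 63.2 against 40.5 to 73.9), and of the proliferation list 1 of 4 (1.18 to 2.87 against 0.953 to 9.82). The adipocyte list rose in 2 of 2 (8.83 to 43.3 against 1.62 to 31.2). The leukocyte list rose in 2 of 4 (9.07 to 24.5 against 6.07 to 15.1). Of the smooth muscle list 0 of 3 were called. In IBxDU and IB pigs apart, 1 of 4 and 3 of 4 fibroblast genes were called lower, beside 20.4% and 23.6% of all genes. Of the leukocyte list 3 of 4 and 1 of 4 were called higher, beside 18.4% and 19.3%. Of the adipocyte list 1 of 2 and 2 of 2 were called higher. In IB pigs alone 1 of 3 smooth muscle genes was called higher. The endothelial and proliferation counts did not stand out from the 25.8% of all genes called lower. On the values as deposited 0 leukocyte genes were higher and 1 was lower. The proliferation list was then lower in 4 of 4, against 0 of 4 after quantile normalization. Of all 12180 genes tested, 7495 were called lower as deposited and 2418 after quantile normalization. SOX10, a transcription factor of Schwann cells, was lower at 4 months on both of its rows (-1.03 and -1.41), although quantile normalization ended the call of the first (-0.41). Their part in the IGF system results was not tested.

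Between genetic types at birth 0 of the 8 members were called by limma, beside 4.18% of all 12290 genes tested. Of the members, 3 had an unadjusted limma p under 0.05, and the share of all genes at that limit was not counted. No gene of the table had an adjusted p under 0.05 in this comparison. IGF1R and IGF2R came closest to the limits, each lower in IBxDU newborns. IGF1R averaged 1.60 ± 0.34 scaled RPKM in IBxDU and 2.55 ± 0.76 in IB newborns (SD, n = 6 each), a log2 difference of -0.61 ± 0.21 (95% interval -1.06 to -0.16, limma p = 0.0116, adjusted p = 0.181, two-sided exact permutation p = 0.026). IGF2R averaged 9.77 ± 1.9 and 15.9 ± 5.2, a difference of -0.65 ± 0.22 (95% interval -1.13 to -0.17, limma p = 0.0112, adjusted p = 0.179, two-sided exact permutation p = 0.0238). All 6 IBxDU newborns lay below the IB median for both receptors, with overlapping ranges.

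The receptor differences at birth crossed the limits in some settings. With 1 fit over all 4 groups both were called, with limma adjusted p = 0.0738 for each. Fitted with voom on the reads recovered from the RPKM values, 1 member was called, IGF1R (limma-voom adjusted p = 0.169). IGF1R was also called without IBxDU newborn 412 (-0.70, limma adjusted p = 0.0875) or IB newborn 323 (-0.73, limma adjusted p = 0.119). IGF2R was called after quantile normalization (limma adjusted p = 0.146), and without IBxDU newborn 427 (-0.73, limma adjusted p = 0.192), IB newborn 323 (-0.80, limma adjusted p = 0.105) or IB newborn 330 (-0.73, limma adjusted p = 0.23). In the 7 newborn libraries with the lower share of reads in listed genes, IGF1R differed by -0.76 (limma adjusted p = 0.228) and IGF2R by -0.45 (limma adjusted p = 0.51). The values as deposited gave -0.45 (limma adjusted p = 0.328) for IGF1R and -0.47 (limma adjusted p = 0.333) for IGF2R. Of the newborn libraries with the higher share, 4 were IBxDU and 1 was IB. With library kind in the model, IGF1R differed by -0.63 (limma adjusted p = 0.239) and IGF2R by -0.61 (limma adjusted p = 0.269), and neither was called.

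The remaining members at birth were not called. IGFBP4 averaged 21.8 ± 7.6 scaled RPKM in IBxDU and 15.2 ± 2.9 in IB newborns, a log2 difference of 0.47 (95% interval 0.00 to 0.94, limma p = 0.0497, adjusted p = 0.265, two-sided exact permutation p = 0.0736), and 3 of 6 IBxDU newborns lay above every IB newborn. IGFBP3 averaged 5.55 ± 2.0 and 8.08 ± 3.1, a difference of -0.52 (95% interval -1.10 to 0.07, limma adjusted p = 0.309). The intervals of IGF1 (-0.45 to 0.51), IGFBP5 (-0.61 to 0.43), IGFBP6 (-0.51 to 0.66) and IGF2BP2 (-0.47 to 0.55) reached to either side of 0. The summed erythroid markers were 163 to 541 in IBxDU and 382 to 2094 in IB newborns, and the fibroblast sum was 597 to 1838 and 929 to 2016. Of the marker genes, CNN1 of smooth muscle was called higher (1.36) and CSF1R of leukocytes lower (-0.92) in IBxDU newborns. The part of these markers was not tested.

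At 4 months 0 of the 8 members were called between IBxDU and IB pigs by limma, beside 1.42% of 10728 genes tested, and 0 were called by voom. The share of all genes with an unadjusted limma p under 0.05 was not counted, and of the members IGF1 alone had one. It averaged 1.15 ± 0.38 scaled RPKM in IBxDU and 0.746 ± 0.15 in IB pigs (SD, n = 6 each), a log2 difference of 0.52 ± 0.24 (95% interval 0.01 to 1.03, limma adjusted p = 0.568, two-sided exact permutation p = 0.0498). In 4 of 6 IBxDU pigs IGF1 lay above every IB pig, while IBxDU pig 732 had 0.600, near the bottom of the IB range. Without pig 732 the difference was 0.67 (limma adjusted p = 0.18) and passed both limits. The library of pig 732 had the smallest scaling factor of the 24, 0.530, and 99.4% of its reads in listed genes.

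For the other members at 4 months, the intervals of IGF1R (-0.38 to 0.44) and IGF2R (-0.35 to 0.36) reached to either side of 0. IGFBP3 differed by 0.31 (-0.23 to 0.86), IGFBP5 by 0.22 (-0.35 to 0.79) and IGFBP6 by 0.40 (-0.11 to 0.91), all with higher values in IBxDU. IGF2BP2 differed by -0.32 (-0.73 to 0.09) and IGFBP4 by -0.07 (-0.47 to 0.33). Between the types COL1A1 of the fibroblast list was higher (0.79, limma adjusted p = 0.393) in IBxDU pigs, and its part was not tested.

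Whether the genetic type difference changed with stage was tested by the interaction term, (IBxDU minus IB at 4 months) minus (IBxDU minus IB at birth). Of the 8 members 0 were called by limma and 0 by voom, beside 3.99% of 12441 genes tested called by limma. At an unadjusted limma p under 0.05, where the share of all genes was not counted, lay 3 members. These were IGF1R (0.64 ± 0.27, limma adjusted p = 0.3), IGF2R (0.66 ± 0.28, limma adjusted p = 0.319) and IGFBP3 (0.83 ± 0.37, limma adjusted p = 0.333). None of the 3 had been called between types at either age. Without IB newborn 323, IGF1R (0.76, limma adjusted p = 0.17) and IGF2R (0.80, limma adjusted p = 0.162) passed both limits, as did IGF2R without IBxDU pig 702 of 4 months (0.80, limma adjusted p = 0.202). IGF1, called between ages in IB pigs and not in IBxDU, gave 0.49 (limma adjusted p = 0.522), and IGFBP4, with the opposite outcome, gave -0.54 (limma adjusted p = 0.438), so that the difference between the types in their stage response was not established for either.

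Around the 8 members, other carriers, proteases, growth hormone genes and signalling genes were taken from lists. Of 5 other IGF carriers, 4 were measured and 2 tested. IGFALS, the acid-labile subunit that completes the serum complex of IGF and IGFBP3, fell by 1.60 ± 0.19 on the log2 scale (limma adjusted p = 5e-08), to 0.431 ± 0.15 scaled RPKM in pigs of 4 months against 1.499 ± 0.49 in newborns (SD, n = 12 each). It rested on few reads, 5 to 25 per library at 4 months and 51 to 295 in newborns. IGFBP7, a related matrix protein that binds IGFs weakly, was 0.64 higher with scaling and -0.18 on the values as deposited, and was not called under either other scaling. IGFBP1 and IGFBPL1 were under the filter.

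Of the 7 IGFBP proteases and their inhibitors 5 were tested, of which 4 were lower and 1 higher at 4 months. Of all genes tested 25.8% were called lower and 45.8% either way. The median log2 difference of the list was -1.33 beside -0.13 for all genes. The count was 4 lower and 0 higher on the values as deposited, and 3 lower and 1 higher after quantile normalization. Of all 12180 genes tested, 7495 and 2418 were called lower in these settings. STC1, a stanniocalcin, fell by 2.57 ± 0.32 (limma adjusted p = 1.25e-07) and STC2, an inhibitor of the protease PAPPA, by 1.57 ± 0.37 (limma adjusted p = 0.000552). HTRA3, a secreted serine protease, fell by 1.33 ± 0.18 (limma adjusted p = 4.73e-07). HTRA1, a secreted serine protease that cleaves IGFBP5, rose by 1.16 ± 0.11 (limma adjusted p = 1.59e-09), to 35.7 ± 5.9 scaled RPKM at 4 months against 16.0 ± 3.0 at birth, and was 0.34 higher without a call on the values as deposited. PAPPA, which cleaves IGFBP4 and IGFBP5, and PAPPA2 were under the filter, with PAPPA at 0.229 and 0.227 scaled RPKM at the 2 ages. In IBxDU pigs alone 4 genes of the list were lower and 1 higher at 4 months, beside 20.4% of all genes called lower. In IB pigs alone 2 were lower and 1 higher, beside 23.6%.

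Of the growth hormone axis and insulin receptor list 5 of 7 genes were tested, and 2 were higher and 0 lower at 4 months. The number of calls did not stand out from the 45.8% of all genes called either way. In IBxDU pigs alone 2 were higher and in IB pigs 1, with 0 lower in each, beside 38.8% and 43.0% called either way. The median log2 difference of the list was 0.39 beside -0.13 for all genes. On the values as deposited 0 were higher and 2 lower (INSR and JAK2, the kinase bound to GHR, named after its values were seen). Of all 12180 genes, 719 were then called higher and 7495 lower. The median of the list was -0.43 beside -0.91, so that the sign of this balance depended on the scaling. GHR, the growth hormone receptor, whose signal induces IGF1, was 0.71 ± 0.19 higher (limma adjusted p = 0.00201), at 20.6 ± 4.7 scaled RPKM at 4 months and 13.1 ± 4.7 at birth. GHR was not called under either other scaling, at -0.10 on the values as deposited and 0.52 after quantile normalization. In IBxDU pigs alone GHR was 0.98 ± 0.25 higher (limma adjusted p = 0.00547). In IB pigs GHR averaged 22.5 ± 4.6 scaled RPKM at 4 months and 16.4 ± 2.4 at birth (SD, n = 6 each). STAT5B, the transcription factor that carries that signal, was 1.27 ± 0.14 higher (limma adjusted p = 8.69e-09), and 0.46 without a call on the values as deposited. INSR, the insulin receptor, differed by -0.34 (limma adjusted p = 0.13) and was not called with scaling, whereas it was -1.13 and called lower on the values as deposited. Per unit length INSR was 3.23 ± 0.84 times IGF1R in pigs of 4 months and 1.80 ± 0.79 times in newborns (SD, n = 12 each), with overlapping ranges.

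With scaling, more of the signalling genes below IGF1R were higher than lower at 4 months. Of 31 names 24 were measured and tested, and 8 were higher and 2 lower at 4 months. Of all genes tested 25.8% were called lower and 45.8% either way, so the list did not stand out by its number of calls. The median log2 difference of the list was 0.34 beside -0.13 for all genes. IRS1, the docking protein of the insulin and IGF1 receptors, was 2.32 ± 0.23 higher (limma adjusted p = 3.28e-09), at 24.6 ± 6.1 against 5.37 ± 2.8 scaled RPKM in newborns. FOXO4, a transcription factor that AKT restrains, was 1.93 ± 0.14 higher (limma adjusted p = 1.46e-11) and GSK3B, a kinase that AKT inhibits, 1.07 ± 0.13 higher (limma adjusted p = 8.75e-08). PTPN1, a phosphatase of the insulin receptor, fell by 1.07 (limma adjusted p = 1.79e-05). On the values as deposited 3 were higher (IRS1, FOXO4 and PIK3R1, the last named after its values were seen) and 8 lower. Of all 12180 genes, 719 were then called higher and 7495 lower, so the sign of the list's balance depended on the scaling. The median of the list lay above that of all genes under each scaling, at -0.45 beside -0.91 as deposited. After quantile normalization it was 0.20 beside -0.05.

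**Figure D5:**
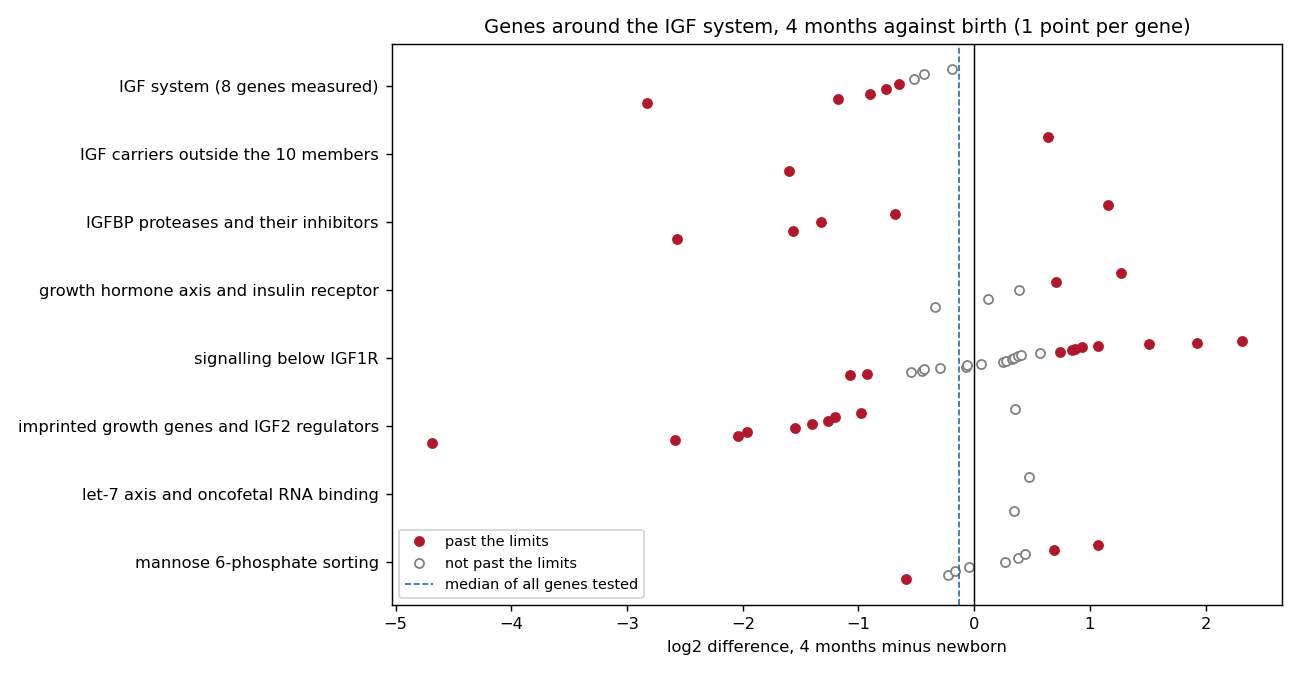
Log2 difference, 4 months minus newborn (horizontal axis), of each gene tested in the IGF system and in 7 lists around it, 1 point per gene row. Filled points passed p at most 0.01 and 1.5-fold, open points did not, and the dashed line is the median of all genes tested, -0.13. The 8 IGF system genes all lie below that line, and the list of signalling genes below IGF1R holds 8 filled points above 0 and 2 below.

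Between genetic types at birth, 5 genes of these lists were called, all with adjusted p above 0.1, beside 4.18% of all genes tested. They were 1 of 5 proteases and inhibitors, 2 of 5 genes of the growth hormone list and 2 of 24 signalling genes, with 0 of 2 carriers. GHR averaged 9.74 ± 4.0 scaled RPKM in IBxDU and 16.4 ± 2.4 in IB newborns (-0.83 ± 0.23 on the log2 scale, limma adjusted p = 0.128, n = 6 each). In IBxDU newborns STAT5B differed by -0.64 (limma adjusted p = 0.123), IRS1 by -1.02 (limma adjusted p = 0.145) and FOXO3, another forkhead factor under AKT, by -1.38 (limma adjusted p = 0.104). ADAM12, a metalloprotease that cleaves IGFBP3 and IGFBP5, was 0.76 higher in IBxDU (limma adjusted p = 0.164). For IRS1 and FOXO3 the interaction with stage was also called (1.29 and 1.25, limma adjusted p = 0.149 and 0.14). At 4 months none of these genes was called between the types by limma, and 1 gene of the lists, FOXO1, had an unadjusted p under 0.05 (0.56 higher in IBxDU, limma adjusted p = 0.487).

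The genes with the most similar pattern over the 24 libraries were sought among 12172 genes by the root mean square difference of centred log2 values. For IGF1, whose own values spread by 0.51 around their mean, the nearest included TBC1D31 (0.27) and CNOT6 (0.28). For IGFBP3, which spread by 1.49, they were KCNN2 (0.49), ADAMTSL4 (0.50) and CYP26B1 (0.50). ADAMTSL4, a secreted matrix protein, averaged 2.26 scaled RPKM at 4 months and 15.3 at birth, and CYP26B1, an enzyme that degrades retinoic acid, 0.119 and 1.15.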

How the data were processed

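The authors mapped paired reads of LD muscle mRNA to Sscrofa10.2 with CLC Genomics Workbench and deposited 1 table of RPKM per gene and library (named FPKM in the study's methods). RPKM does not correct for a few very abundant genes, so the values were divided by trimmed-mean factors over all 24 libraries (30% trimmed at each end). Whole reads were recovered from the RPKM steps, within 0.001, for 100% of the 17846 genes above 0, which gave the library totals. Symbols came from a gene name table (11450 IDs) and the study's supplementary tables (412 IDs, including IGF1R and IGFBP3). All columns were used.

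Log2(scaled RPKM + 0.1) was tested with limma 3.58.1 in R 4.3.3 (eBayes with trend, genes over 0.5 RPKM in at least 1 group). The genetic types were also compared by two-sided exact permutation in scipy 1.17.1, whose smallest p for 6 against 6 is 0.00216. The model was tested on simulated data. The members, the lists and the ratios were chosen with earlier results of these data known. The text names every member, and of each list up to 3 called genes per direction with the smallest p for stage, those called between types, and IGF2BP1, IGFALS, GHR, INSR, H19 and ZBED6, of which H19 and ZBED6 were not analysed here; some genes that the rule or the lists name are not reported here. Alternatives were other scalings, filters, pseudocounts and models, voom on the recovered reads, library kind in the model or the lower-share libraries alone, and leaving out each library. Scaling on the libraries of 1 comparison was added after seeing the data.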

Additional observations from a re-analysis of the deposited data

How the results depend on the processing

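Over the alternatives, the stage calls of IGF1R, IGFBP3, IGFBP4 and IGF2BP2 over both types held in every fit, and that of IGF1 was lost after quantile normalization (-0.31) and with a pseudocount of 0.5 (-0.49). Of the members, 8 were called lower on the values as deposited in the stage comparison, beside 7495 of all 12180 genes tested. As deposited, each type alone also had 8 called lower, beside 6733 of 12274 genes in IBxDU and 6678 of 11988 in IB pigs. In IB pigs 7 were called lower after quantile normalization, beside 2189 of 11988 genes. Between types at birth, 1 member was called lower after quantile normalization, 2 with 1 fit of all 4 groups and 1 with voom. Of all 12290 genes, 320 were called lower after quantile normalization, and the shares in the other settings were not counted. Leaving out 1 library, the members called ranged from 5 to 6 for stage, 4 to 4 in IBxDU, 4 to 6 in IB, 0 to 2 between types at birth, 0 to 1 at 4 months, and 0 to 2 for the interaction.

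Small differences changed sign. In IBxDU pigs IGF2R between ages was -0.71 as deposited. At birth IGFBP5 was 0.09 as deposited, 0.14 with library kind in the model and 0.30 in the lower-share libraries alone, and IGF1 was -0.023 after quantile normalization and -0.12 in the lower-share libraries. At 4 months IGFBP4 was 0.049 as deposited, and IGF1R was -0.11 after quantile normalization and -0.023 in the lower-share libraries. Leaving out 1 library, the difference at birth ran from -0.084 to 0.17 for IGF1, -0.24 to 0.047 for IGFBP5, -0.082 to 0.28 for IGFBP6 and -0.11 to 0.21 for IGF2BP2. At 4 months it ran from -0.066 to 0.11 for IGF1R, -0.073 to 0.15 for IGF2R and -0.17 to 0.035 for IGFBP4. The causes were not tested. No paired analysis was possible because each group consisted of different pigs with their own numbers. IGFBP3 and IGF1 rested on as few as 5 and 16 reads in a library.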

Other observations

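Genes near IGF2 and IGF2R in function were followed through further lists. Of the imprinted growth genes and IGF2 regulators, 14 names, 10 gene rows were measured and tested. At 4 months 9 were lower and 0 higher than at birth, beside 25.8% of all genes tested called lower. The median log2 difference of the list was -1.48 beside -0.13 for all genes. Over both types the 9 stayed called under both other scalings. Of all 12180 genes, 7495 were called lower as deposited and 2418 after quantile normalization. In IBxDU pigs alone 7 of the 10 rows were called lower, beside 20.4% of all genes, and in IB pigs 9, beside 23.6%. DLK1, a paternally expressed inhibitor of adipogenesis, averaged 4.43 ± 1.8 scaled RPKM in pigs of 4 months and 133 ± 96 in newborns on one of its 2 rows (-4.69 ± 0.32 on the log2 scale, limma adjusted p = 2.58e-12), and was -2.04 on the other. SGCE, a paternally expressed sarcoglycan, fell by 1.20 and 1.40 on its 2 rows, and PLAG1, a zinc finger activator of IGF2 transcription, fell by 1.97, to 0.0647 scaled RPKM at 4 months against 0.566 at birth. Reads of a gene split over 2 rows could have been shared between them, so each of those rows is uncertain.

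Of the mannose 6-phosphate sorting list, which includes the route that IGF2R serves, 9 of 11 names were tested. At 4 months 2 were higher and 1 lower, which did not exceed the 45.8% of all genes called either way. The median of the list was 0.26 beside -0.13 for all genes. On the values as deposited 0 were higher and 4 lower, beside 719 and 7495 of all 12180 genes. The median was then -0.46 beside -0.91, so that the sign of the balance depended on the scaling. GGA1, an adaptor that carries such receptors from the Golgi, was 1.07 higher, and 0.26 without a call as deposited, and its relative GGA2 was -0.59. CTSB, a lysosomal protease, was 0.69 higher with scaling. It was -0.13 on the values as deposited and 0.275 after quantile normalization, without a call under either. Of the let-7 and oncofetal RNA-binding list 2 of 8 names were tested and 0 called by limma, 1 of them having an unadjusted p under 0.01 and both under 0.05. After quantile normalization 1 of the 2 was called higher. LIN28A had 0 reads in 21 of 24 libraries.

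The liver list was looked at because liver is a main source of serum IGF1. ALB averaged 21.3 ± 28 scaled RPKM in pigs of 4 months and 0.827 ± 0.76 in newborns, while APOA1 fell by 1.14 and TF was not called. The part of these transcripts in the IGF1 values was not tested.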
